A study of Rattus norvegicus with 2 samples.

Results

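The genes described here are 10 well-known transcriptional targets of the tumour suppressor p53 that stand outside the core apoptosis machinery, namely Cdkn1a, Mdm2, Ccng1, Zmat3, Fas, Sesn1, Btg2, Phlda3, Plk2 and Aen. They were taken by symbol from a table of 21224 gene rows, where each has 1 row. All 10 had a mean of at least 1 FPKM (reads divided by gene length and by library depth), as did 13172 rows in all. RNA came from rat cortical neurons of embryonic day 18 that had received a small interfering RNA against Ythdf3 (siYthdf3) or a negative control small interfering RNA (siNC). Each group had 1 library, so no difference below has a replicate check, no p-value is given, and intervals cover counting error only. The targeted gene Ythdf3 had 6.93 FPKM in siYthdf3, against 9.38 FPKM in siNC, for a ratio of 0.739 (95% counting interval 0.675 to 0.809), and Wwtr1, which the study's title names, had a ratio of 0.475 (interval 0.409 to 0.550). The labels give no strain, culture age, time after transfection or injury treatment for either group.

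p53 is a transcription factor that is kept low by the ubiquitin ligase Mdm2 and is stabilised after DNA damage and other stress. It binds paired short motifs in the DNA near its targets, whose products halt the cell cycle, feed back on p53, sensitise cells to death receptors, or adjust growth signalling and metabolism. In neurons, which no longer divide, p53 is best known for its part in the response to DNA damage and in injury-induced cell death. The protein made from Ythdf3 binds messenger RNA that carries the methyl mark m6A.

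The DNA around the annotated starts was searched for letters like those of the p53 response element. RefSeq promoter windows of the GRCr8 assembly, 250 bases before to 50 bases after a start, were found for 9 of the 10 genes, all but Zmat3. The element was written as 2 motifs of 10 bases each, with the central C and G of both kept, up to 3 bases between them and at most 2 mismatches in all. The motif reads the same on both strands. Such a pair stood in 1.17% of 33469 windows of the same length, and in the windows of 4 of the 9 genes, which are shown with both motifs in capitals:
Cdkn1a (chr20:7150711-7150770, plus strand, 1 mismatch): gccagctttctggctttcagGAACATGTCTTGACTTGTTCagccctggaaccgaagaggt
Ccng1 (chr10:25685079-25685126, minus strand, 1 mismatch): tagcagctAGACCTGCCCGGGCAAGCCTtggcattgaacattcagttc
Aen (chr1:142224483-142224532, plus strand, 2 mismatches): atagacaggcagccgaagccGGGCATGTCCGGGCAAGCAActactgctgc
Sesn1 (chr20:46948514-46948576, plus strand, 2 mismatches): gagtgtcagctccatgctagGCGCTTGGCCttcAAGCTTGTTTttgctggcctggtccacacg

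In Cdkn1a, Ccng1 and Aen the motifs abut, and in Sesn1 they lie 3 bases apart. The Aen pair lies closest to its start, at bases -30 to -11, and the Ccng1 pair farthest, at -242 to -223. The windows of Mdm2, Fas, Btg2, Phlda3 and Plk2 held no pair under this rule. Of the 34 windows found for 40 other p53 targets 0 held one, and of the 8 found for 12 apoptotic p53 targets 1 did. A match describes the letters and shows no binding, and no match says only that these letters are not in the window.

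Most of the 10 genes were somewhat higher in the siYthdf3 library. Fas and Zmat3 stood out as 1.83-fold and 1.84-fold higher. Mdm2, Ccng1, Aen, Phlda3 and Btg2 were 1.17 to 1.23-fold higher, while Plk2, Sesn1 and Cdkn1a had intervals that include 1. Since these are bulk libraries, a different share of a cell type and a different amount of RNA per cell cannot be told apart.

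**Figure D1:**
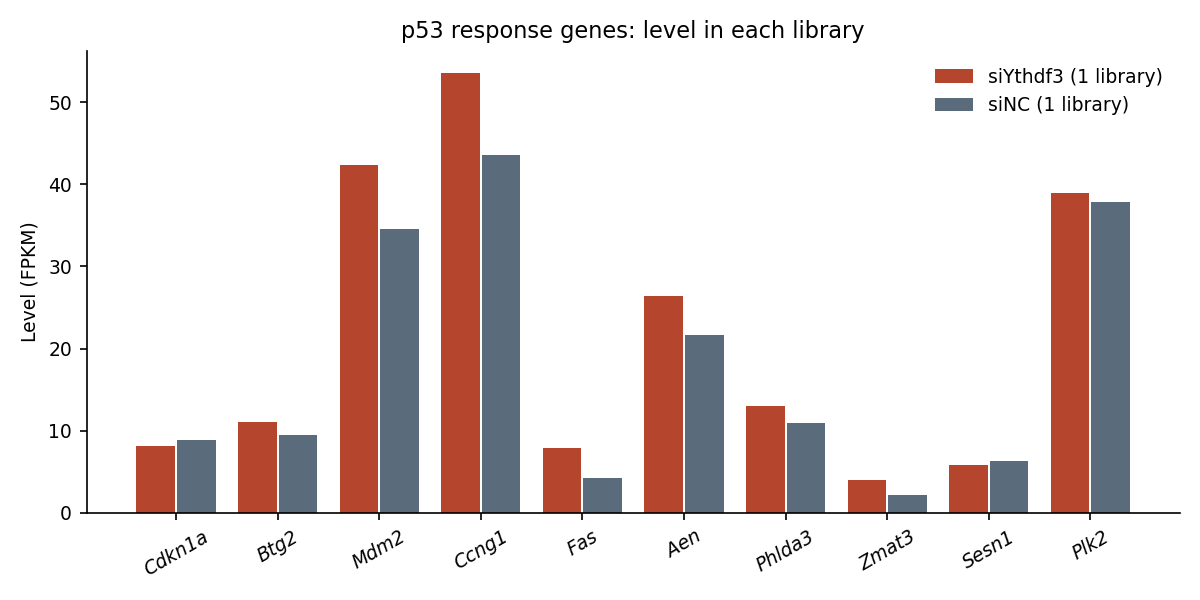
Level of each gene in FPKM (y axis, linear from 0) in the siYthdf3 library (red, left bar) and the siNC library (grey, right bar), 1 library each and therefore without error bars. Ccng1 is the most abundant, at 53.6 FPKM in siYthdf3 against 43.6 FPKM in siNC, and Zmat3 the least, at 4.03 FPKM in siYthdf3 against 2.19 FPKM in siNC.

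The 10 genes covered a wide range of levels, 13.3-fold from lowest to highest in siYthdf3 and 19.9-fold in siNC. The median of all genes was 7.77 FPKM in siYthdf3 and 7.92 FPKM in siNC, and 8 of the 10 genes lay above it in siYthdf3 and 7 in siNC. In siYthdf3 the order from the top was Ccng1, Mdm2, Plk2, Aen, Phlda3, Btg2, Cdkn1a, Fas, Sesn1 and Zmat3. In siNC Plk2 stood above Mdm2 and Sesn1 above Fas, and the order was otherwise the same. Exact Poisson intervals of the levels overlapped between Phlda3 and Btg2 and between Cdkn1a and Fas in siYthdf3. In siNC they overlapped between Plk2 and Mdm2, between Phlda3 and Btg2 and between Btg2 and Cdkn1a. All other neighbours in either order were apart by counting error.

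Mdm2 and Ccng1 form the feedback arm, since the MDM2 protein marks p53 for degradation and cyclin G1 acts on MDM2 through the phosphatase PP2A. Mdm2 (ENSRNOG00000006304, chromosome 7, 53290664 to 53314909, minus strand) had 42.4 FPKM in siYthdf3, against 34.6 FPKM in siNC, from 3154 and 1755 reads. The ratio of siYthdf3 over siNC was 1.22 (exact 95% interval 1.15 to 1.30). Ccng1 (ENSRNOG00000003256, chromosome 10, 25176234 to 25181641, minus strand) had 53.6 FPKM in siYthdf3, against 43.6 FPKM in siNC (3638 and 2018 reads). The ratio was 1.23, with an interval of 1.16 to 1.30. Both feedback genes were thus higher in siYthdf3 by almost the same factor. Coordinates of measured genes are as deposited, in a build that the sources do not state.

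Cdkn1a and Btg2 belong to the arm that restrains proliferation. Cdkn1a (ENSRNOG00000000521, chromosome 20, 7149217 to 7159585, plus strand) encodes p21, an inhibitor of cyclin-dependent kinases and the best known p53 target. It had 8.09 FPKM in siYthdf3, against 8.81 FPKM in siNC (431 and 320 reads). The ratio was 0.918, with an interval of 0.792 to 1.06. Btg2 (ENSRNOG00000003300, chromosome 13, 45531925 to 45535628, minus strand) encodes an antiproliferative protein that recruits the CCR4-NOT deadenylase to messenger RNA. It had 11.0 FPKM in siYthdf3, against 9.43 FPKM in siNC (591 and 345 reads). The ratio was 1.17, with an interval of 1.02 to 1.34. The interval of Cdkn1a lies wholly below those of Mdm2 and Ccng1 and overlaps that of Btg2. The level of Mdm2 was 5.24 times that of Cdkn1a in siYthdf3 and 3.93 times in siNC.

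Fas, Aen and Phlda3 act towards cell death. Fas (ENSRNOG00000019142, chromosome 1, 231798960 to 231832227, plus strand) encodes the death receptor for Fas ligand. It had 7.86 FPKM in siYthdf3, against 4.29 FPKM in siNC (460 and 171 reads). The ratio was 1.83, with an interval of 1.53 to 2.20. The level of Fas was 0.973 times that of Cdkn1a in siYthdf3 and 0.487 times in siNC.

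Phlda3 (ENSRNOG00000009068, chromosome 13, 47193086 to 47196335, plus strand) encodes a small pleckstrin homology domain protein that competes with the kinase AKT for membrane lipids. It had 13.0 FPKM in siYthdf3, against 11.0 FPKM in siNC (466 and 268 reads). The ratio was 1.18, with an interval of 1.02 to 1.38. Aen (ENSRNOG00000018421, chromosome 1, 132815142 to 132824523, plus strand) encodes a nuclear exonuclease induced during apoptosis. It had 26.5 FPKM in siYthdf3, against 21.6 FPKM in siNC (1428 and 794 reads). The ratio was 1.23, with an interval of 1.12 to 1.34. The row of Isg20, a related exonuclease gene on the same strand, spans the whole of Aen (132815123 to 132837027), so the split of reads between both genes is uncertain. Isg20 had 17.3 FPKM in siYthdf3, against 13.4 FPKM in siNC, for a ratio of 1.29 (1.17 to 1.43), close to that of Aen. No other row of the table overlapped any of the 10 genes.

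Zmat3, Sesn1 and Plk2 have other roles. Zmat3 (ENSRNOG00000063864, chromosome 2, 115106966 to 115136863, minus strand) encodes a zinc finger protein that binds RNA and affects splicing and messenger stability. It had 4.03 FPKM in siYthdf3, against 2.19 FPKM in siNC (616 and 228 reads). The ratio was 1.84, with an interval of 1.58 to 2.15. The intervals of Zmat3 and Fas lie above those of the other 8 genes, and they overlap each other.

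Sesn1 (ENSRNOG00000000302, chromosome 20, 45294871 to 45387697, plus strand) encodes sestrin 1, which restrains the growth kinase mTORC1 through the GATOR complexes. It had 5.82 FPKM in siYthdf3, against 6.28 FPKM in siNC (480 and 353 reads). The ratio was 0.927, with an interval of 0.806 to 1.07. Plk2 (ENSRNOG00000011951, chromosome 2, 41969176 to 41974947, plus strand) encodes a polo-like kinase that in neurons is also induced by activity and acts at synapses. It had 39.0 FPKM in siYthdf3, against 37.8 FPKM in siNC (2472 and 1634 reads). The ratio was 1.03, with an interval of 0.968 to 1.10. Neither gene differed between the libraries beyond counting error.

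**Figure D2:**
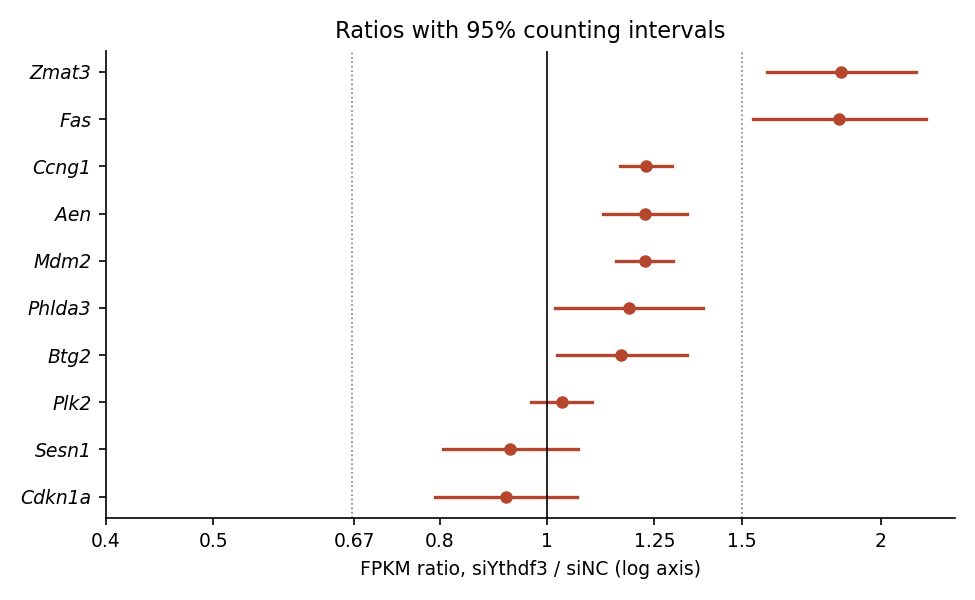
Ratio of FPKM, siYthdf3 over siNC (x axis, log scale), for the 10 genes from highest to lowest, with points for the ratio and lines for the exact 95% counting interval. Solid and dotted vertical lines mark equal levels and 1.5-fold either way. Zmat3 and Fas lie past 1.5-fold with their whole interval, 5 genes lie between 1.17 and 1.23, and the intervals of Plk2, Sesn1 and Cdkn1a include 1.

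With a rule of size of 1.5-fold on log2 of FPKM after adding a pseudocount of 0.5 FPKM, 2 of the 10 genes, Fas and Zmat3, were called higher and 0 were called lower, and 0 were 2-fold higher. The counts of genes at least 1.5-fold higher or lower given below follow the same rule, pseudocount included. Across all 13172 genes, 2.41% were called higher and 3.95% lower by the same rule, and 0.706% were 2-fold higher. Counting intervals lay above 1 for 7 of the 10 genes and below 1 for 0, where 20% of all genes had an interval above 1 and 22.2% below. Among the 6268 genes with total reads in the range of the 10 genes, 24% of intervals were above 1 and 26.1% below, 0.893% of genes were at least 1.5-fold higher and 2.6% lower. An interval that excludes 1 was therefore common in these libraries, whichever genes were looked at, and does not by itself set a gene apart. The list is short and was chosen with earlier results of these libraries known, so these shares describe it and test nothing.

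On the log2 scale the 10 genes had a median of 0.26, against -0.01 over all 13172 genes, whose quartiles were -0.17 and 0.14. Fas at 0.80 lay above 98.9% of all genes and Zmat3 at 0.75 above 98.7%. Ccng1, Mdm2 and Aen at 0.29 each lay above 89.7%, 89.2% and 89.2% of genes, Phlda3 at 0.23 above 85.1% and Btg2 at 0.21 above 83.1%. Plk2 at 0.04, Sesn1 at -0.10 and Cdkn1a at -0.12 lay within the quartiles of all genes. Of the 10 genes, 8 were above 0, as were 48.1% of all genes. Without Fas and Zmat3, a choice made after their values were seen, the median of the other 8 was 0.22.

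**Figure D3:**
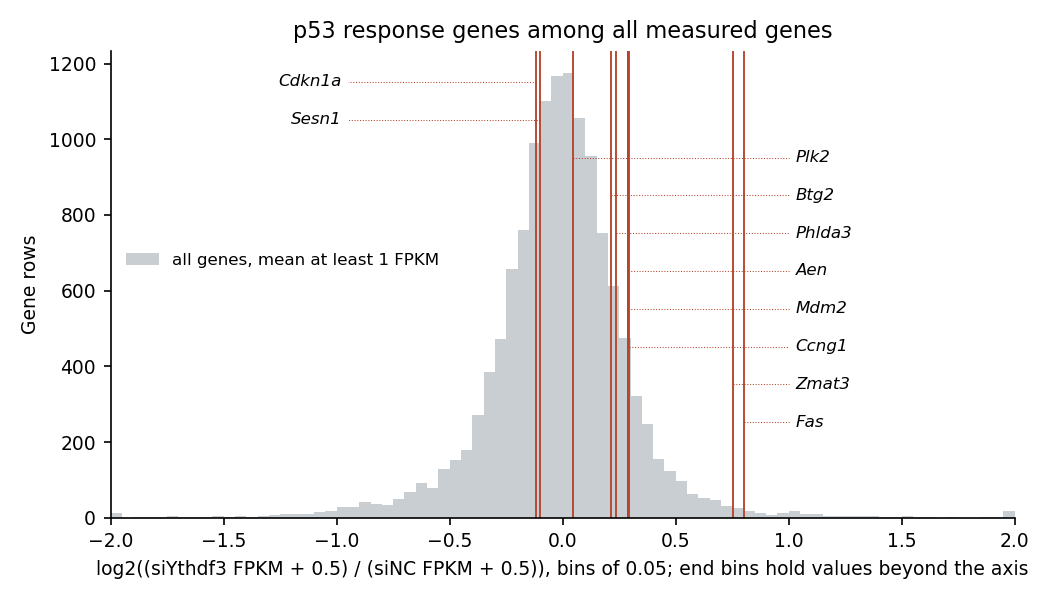
Number of gene rows (y axis) by log2 ratio (x axis, bins of 0.05) for the 13172 genes that averaged 1 FPKM or more (grey bars), with the 10 p53 response genes as red lines. Cdkn1a and Sesn1 fall left of 0, Plk2 just right of it, a cluster of 5 genes between 0.21 and 0.29, and Zmat3 and Fas at 0.75 and 0.80 in the right tail.

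The activity of p53 is set mostly at the protein, which was not measured. Of 16 measured genes for regulators of p53, 0 were at least 1.5-fold higher and 1 lower, with a median log2 ratio of 0.02, or -0.04 after a length trend was removed. The lower one was Chek2, a kinase that activates p53 after DNA damage, at 1.37 FPKM in siYthdf3 against 2.99 FPKM in siNC. Chek1, a replication checkpoint kinase, was at a log2 ratio of -0.54, but these low values do not stand for the list. Intervals lay above 1 for 7 of the 16 and below 1 for 5. Herc2 was the highest, at 0.29, and Atm and Atr were at -0.11 and -0.03.

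Other p53 targets lay closer to the middle of all genes. Over 33 measured genes of a list of 40 the median log2 ratio was 0.03, with 2 genes at least 1.5-fold higher and 1 lower, and with 8 intervals above 1 and 3 below. Ephx1, a detoxifying epoxide hydrolase, had 13.7 FPKM in siYthdf3, against 7.97 FPKM in siNC, a log2 ratio of 0.74. Eda2r, a receptor of the TNF receptor family, had 5.30 FPKM in siYthdf3, against 3.26 FPKM in siNC, a log2 ratio of 0.63. Pcna, the sliding clamp of DNA replication, had 43.0 FPKM in siYthdf3, against 68.5 FPKM in siNC, a log2 ratio of -0.67. Fas belongs to the same receptor family, and both were past 1.5-fold.

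Among 9 measured apoptotic targets of p53 the median log2 ratio was 0.17, with 2 genes at least 1.5-fold higher and 1 lower. Tp53inp1, which promotes p53 phosphorylation, had 3.14 FPKM in siYthdf3, against 1.54 FPKM in siNC, and the BH3-only gene Pmaip1 had 2.86 FPKM in siYthdf3 against 1.40 FPKM in siNC. Siva1, a proapoptotic adaptor, had 2.76 FPKM in siYthdf3, against 4.44 FPKM in siNC.

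Paralogues of the 10 genes went both ways. Of 19 measured paralogues 0 were at least 1.5-fold higher and 2 lower, Plk1 at a log2 ratio of -0.86 and Cdkn1c at -0.82. Plk1, the mitotic polo-like kinase, had 7.45 FPKM in siYthdf3, against 13.9 FPKM in siNC, while Plk2 hardly differed. Plk2 thus made up 70.5% of the summed FPKM of the polo-like kinase genes in siYthdf3 and 60.8% in siNC. Plk4, the kinase of centriole duplication, was at -0.37 and Plk3 at 0.19 on 106 and 61 reads.

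Cdkn1c, which encodes the inhibitor p57, had 10.5 FPKM in siYthdf3, against 19.0 FPKM in siNC. Cdkn1b, which encodes p27 and was the most abundant of the 3 inhibitors, had 52.8 FPKM in siYthdf3, against 52.9 FPKM in siNC. Mdm4, the partner of Mdm2 in holding p53 in check, had 45.7 FPKM in siYthdf3, against 40.6 FPKM in siNC, for a ratio of 1.12 (1.05 to 1.21). Ccng2 was at a ratio of 0.984 (interval 0.923 to 1.05), below the interval of Ccng1.

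The sestrin genes differed from each other. Sesn2 had 6.26 FPKM in siYthdf3, against 5.02 FPKM in siNC (interval of the ratio 1.07 to 1.45), and Sesn3 had a ratio of 1.20 (interval 1.12 to 1.29). That of Sesn1 was 0.927. Sesn1 therefore supplied 18.1% of the summed sestrin FPKM in siYthdf3 and 22.4% in siNC. Phlda1 was lower in siYthdf3, at a ratio of 0.693 (interval 0.633 to 0.758), so that Phlda3 made up 37.9% of the summed Phlda FPKM in siYthdf3 and 26.4% in siNC. In the BTG and TOB family Btg1, the most abundant, was at a ratio of 1.07 (interval 0.993 to 1.14), and Btg3, Tob1 and Tob2 had log2 ratios from -0.09 to 0.17 with intervals that include 1. Zmat1 was at a ratio of 1.29 (interval 1.13 to 1.48). The other measured TNF receptor family genes of the list, Tnfrsf1a and Tnfrsf21, were at ratios of 1.10 (interval 0.918 to 1.33) and 1.17 (interval 1.07 to 1.28), both below the interval of Fas.

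**Figure D4:**
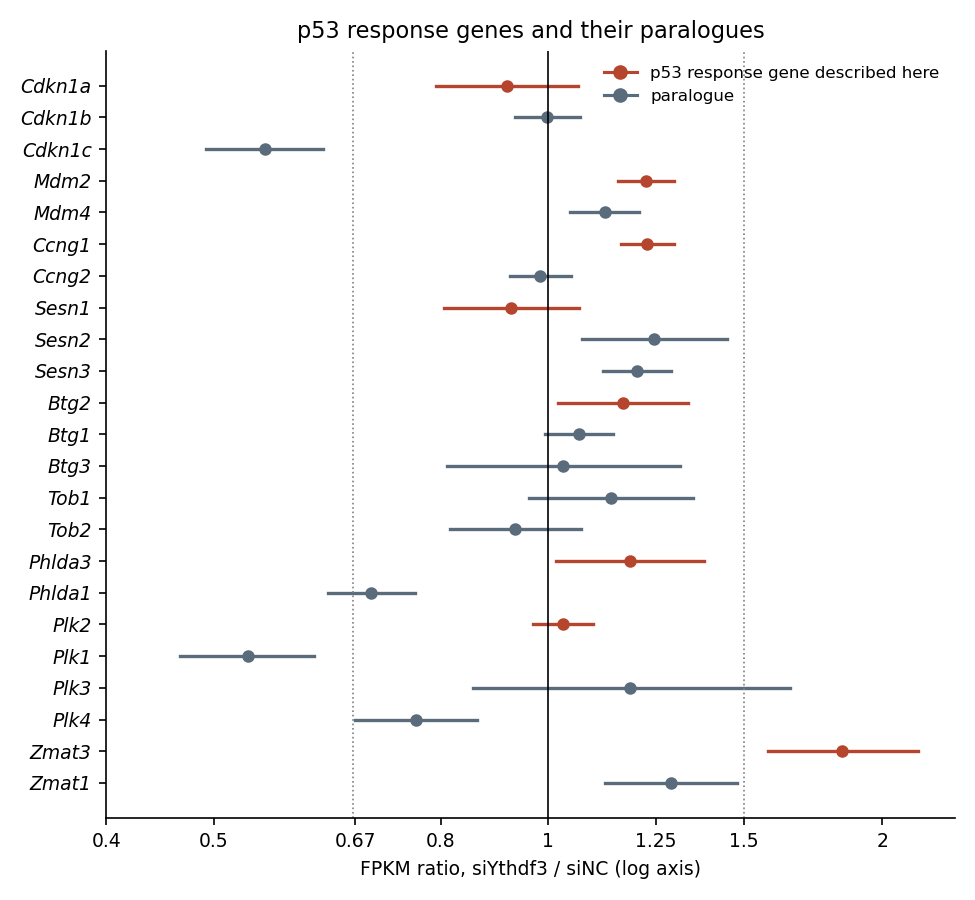
Ratio of FPKM, siYthdf3 over siNC (x axis, log scale), with exact 95% counting intervals for p53 response genes (red) and their measured paralogues (grey), grouped by family. Zmat3 lies to the right of Zmat1, Ccng1 to the right of Ccng2 and Plk2 to the right of Plk1 and Plk4. Plk2 lies to the left of Plk3, whose interval is wide and includes 1, and Sesn1 lies to the left of Sesn2 and Sesn3.

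Of 24 measured genes whose products work with the 10, 6 were above 0 on the log2 scale, or 10 after rescaling to TPM. With the pseudocount of 0.5 FPKM, 0 of these partners were at least 1.5-fold higher and 2 lower, with a median log2 ratio of -0.10 and with 2 intervals above 1 and 12 below. The lower pair were Cdk2, a kinase that p21 inhibits, at 2.48 FPKM in siYthdf3 against 7.50 FPKM in siNC, and Pcna, which p21 also binds. Without the pseudocount Casp8 was also past 1.5-fold higher, and Fadd and Ccne1 past 1.5-fold lower. Ccne1, the cyclin of CDK2, was at a log2 ratio of -0.58 and an FPKM ratio of 0.648. Cdk4 was at a log2 ratio of -0.38 and Ccnd2 at -0.43, while Cdk6 and Ccnd1 were at 0.00 and -0.03.

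In the Fas pathway, Casp8, the initiator caspase, had 1.67 FPKM in siYthdf3, against 0.985 FPKM in siNC, for a ratio of 1.69 (1.13 to 2.58) on 87 and 35 reads. The adaptor gene Fadd had 2.25 FPKM in siYthdf3, against 3.54 FPKM in siNC, for a ratio of 0.637 (0.523 to 0.776). Faslg, the ligand, had 20 reads in siYthdf3 and 19 in siNC and lay below the filter, and the inhibitor gene Cflar had a ratio of 1.05 (interval 0.841 to 1.32). Receptor and initiator caspase genes were thus higher in the siYthdf3 library, and the adaptor between them was lower.

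The remaining measured partners differed by less than 1.5-fold, several of them with an interval that excludes 1. Ppp2r5c and Ppp2r5d, regulatory subunits of the phosphatase that cyclin G1 binds, were at log2 ratios of -0.11 and -0.18. The intervals of their FPKM ratios were 0.881 to 0.972 and 0.830 to 0.934. The GATOR2 genes Wdr24, Wdr59, Mios and Sec13, which link sestrins to mTORC1, had log2 ratios from -0.24 to 0.23. Wdr24 had an FPKM ratio of 0.834 (interval 0.715 to 0.972) and Wdr59 one of 1.19 (interval 1.05 to 1.34). That of Sec13 was 0.851 (interval 0.791 to 0.917), and the interval of Mios included 1. Cnot1, Cnot7 and Cnot8 of the deadenylase that Btg2 recruits had log2 ratios from -0.06 to 0.06. Akt1 and Akt2, kinases that PHLDA3 opposes, were at -0.21 and -0.10. The interval of the FPKM ratio was 0.829 to 0.905 for Akt1 and included 1 for Akt2. Sipa1l1, a synaptic substrate of PLK2, was at -0.01.

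p53 lowers cell cycle genes indirectly, through p21 and the DREAM repressor complex. All 20 measured genes of a list of such genes had an interval below 1, against 22.2% of all genes. At least 1.5-fold lower were 19 of them, against 3.95% of all genes, and their median log2 ratio was -0.92. Their log2 ratios ran from -1.48 for Cdca3 to -0.36 for Cdc25c. The FPKM ratio of Cdkn1a was 0.918, with an interval of 0.792 to 1.06 that includes 1. The share of dividing cells was not measured, and no cause of the lower levels was tested.

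Plk2 and Btg2 are also known as genes induced by neuronal activity. Of 10 measured activity-induced genes 3 were at least 1.5-fold higher and 0 lower, with a median log2 ratio of 0.49. Junb and Egr1 were also past 1.5-fold without the pseudocount. Fosb was at 0.87, Npas4 at 0.78 and Nr4a1 at 0.75, the highest of the 10. Homer1 was at 0.27, Fosl2 at 0.22 and Ier2, the lowest, at -0.22. Btg2 was at 0.21 and Plk2 at 0.04, within this range. Without Plk2 and Btg2, left out with their values known, the median of the other 8 p53 response genes was 0.29. Whether neuronal activity had a part in these values was not tested.

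**Figure D5:**
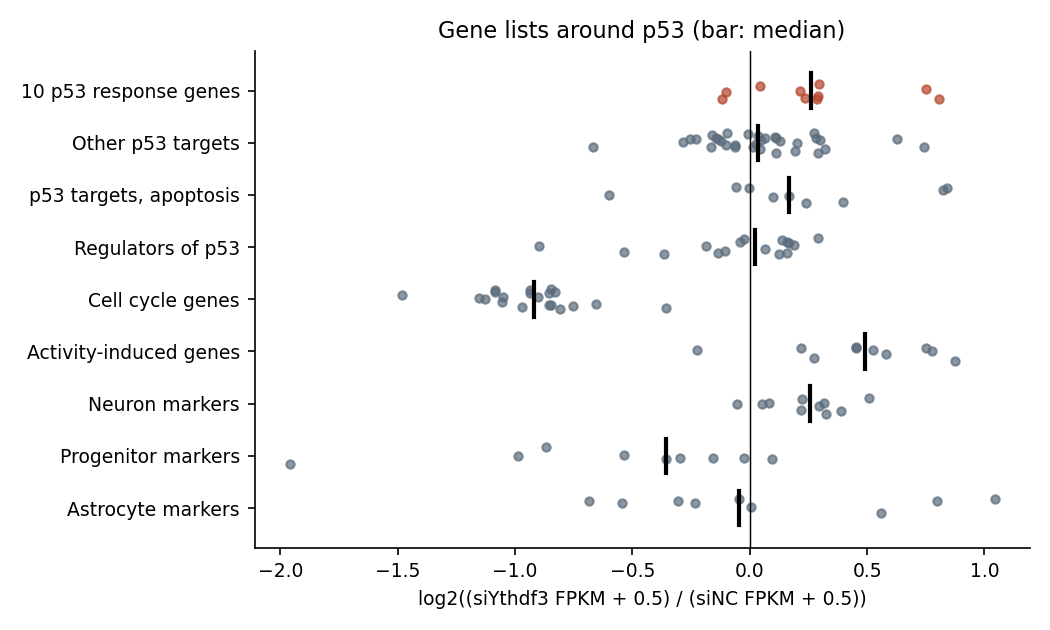
Log2 ratio (x axis) of each measured gene (points) in 9 lists, with the list median as a black bar and the 10 p53 response genes in red. The medians are 0.26 for the 10 genes, 0.03 for other p53 targets, 0.17 for apoptotic targets, 0.02 for regulators of p53 (-0.04 after a length trend was removed) and -0.92 for cell cycle genes.

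Several features of the libraries moved with these values, and their part in the results was not tested. The siYthdf3 library held 22586543 assigned reads and the siNC library 15392218. All 10 neuron markers were measured, with a median log2 ratio of 0.26, the same as that of the p53 response genes to this precision, and a summed level of 1266 FPKM in siYthdf3 and 1102 FPKM in siNC. The 9 progenitor markers had a median of -0.36 and summed to 1387 FPKM in siYthdf3 and 2052 FPKM in siNC. The 9 astrocyte markers had a median of -0.04, or 0.00 after rescaling to TPM. Before rescaling 4 of them were above 0 and 5 below, with 3 intervals above 1 and 3 below. Their sum was 257 FPKM in siYthdf3, against 188 FPKM in siNC. This higher sum came mostly from Gfap, at 141 FPKM in siYthdf3 against 68.2 FPKM in siNC, and does not stand for the list. Of 7 oligodendrocyte lineage markers 6 were measured, and all 7 summed to 18.7 FPKM in siYthdf3 and 31.1 FPKM in siNC.

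Of 7 microglia markers 3 were measured, the sum over the 6 in the table was 3.60 FPKM in siYthdf3 and 7.55 FPKM in siNC, and Cx3cr1 was at 0 reads in siYthdf3 and 2 in siNC. Of 8 pericyte, fibroblast and meningeal markers 5 were measured, and the sum over the 7 in the table, 158 FPKM in siYthdf3 and 132 FPKM in siNC, was mostly Acta2, while Lum had 6 reads in siYthdf3 and 0 in siNC. None of the 6 endothelial markers reached a mean of 1 FPKM, and their sum was 0.753 FPKM in siYthdf3 and 0.991 FPKM in siNC. The libraries labelled as neurons thus also held messenger RNA of genes that mark progenitors, glia and dividing cells.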

How the data were processed

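The authors deposited FPKM values per gene for 1 siYthdf3 and 1 siNC library, with gene identifiers, coordinates and lengths, per the file headers. The submitters' processing notes list StringTie 2.1.4, edgeR 3.40.2, Subread 1.5.1 with featureCounts, the aligner STAR 2.7.6a and fastp 0.23.2, with no roles stated. Build, annotation, strand setting and collapsing of reads by molecular identifier are not stated there. How reads of overlapping genes were split is uncertain, and intervals are too narrow if copies of 1 molecule were counted.

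Multiplying FPKM by gene length gave whole reads after division by 1 constant for each library, to within 0.05 of a read in 100% of values. No count test was run on them. A count of 0 allows up to 3 reads, or 0.133 FPKM in siYthdf3 and 0.195 FPKM in siNC for a gene of 1 kilobase. Intervals of ratios were made from the Clopper-Pearson (exact, 95%) bounds on the fraction of a gene's reads found in siYthdf3. Log2 ratios used a pseudocount of 0.5 FPKM, which understates differences of low genes, and genes that averaged at least 1 FPKM over both libraries. A gene called measured passed that filter.

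The 10 genes and all lists were chosen with earlier results of these data known. Genes named are the 10, genes of each list past 1.5-fold, their paralogues and partners, Ythdf3, Wwtr1 and overlapping genes, with cell cycle genes given by range. Some genes that the rule takes are left out here. Others, such as Chek1, Gfap, Acta2, Cx3cr1 and Lum, were named after their values were seen. Symbols not found included Rpl5 of the regulators, Aldh4a1 and Dcxr of the other targets, Zmat2 and Isg20l2 of the paralogues and Seh1l of the partners. Promoter windows are from RefSeq, matched by symbol. The calculation was tested on simulated counts with counting error only and planted changes larger than those of the 10 genes. That test does not cover differences of their size or variation between libraries. Software was scipy 1.17.1, pandas 2.3.3, numpy 2.4.6 and matplotlib 3.10.9 under Python 3.11.15.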

Additional observations from a re-analysis of the deposited data

How the results depend on the processing

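Pseudocounts of 0.1 and 1 FPKM, no filter, a mean of at least 5 FPKM, rescaling to TPM, centring on the median, rescaling without mitochondrially encoded and top 20 genes, removal of a length trend and drawing siYthdf3 reads down to the depth of siNC gave 89 log2 ratios of the 10 genes. All 89 kept their sign and moved by less than the counting interval. The median of the 10 genes ran from 0.23 to 0.32, Fas from 0.74 to 0.90, Zmat3 from 0.66 to 0.88 and Cdkn1a from -0.12 to -0.06. The count at least 1.5-fold higher was 1 of 9 genes at a mean of at least 5 FPKM, where Zmat3 fell below the filter. Of all genes that passed this filter, 1.03% were called higher. Under a 2-fold rule the count was 0. A smaller fold threshold gave 2 of the 10 genes, as the 1.5-fold rule did. It sets them less apart, since it called 8.78% of all genes higher, against 2.41% at 1.5-fold. No gene was called lower under any of these settings. No paired analysis was possible because each group had 1 library. Depth limits Fas most, with 171 reads in siNC.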

Other observations

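Some genes beside the p53 response genes on the chromosome had ratios unlike theirs. Within 20000 bases of Ccng1, Hmmr, a hyaluronan-binding protein of the mitotic spindle, had 17.5 FPKM in siYthdf3, against 28.0 FPKM in siNC, and Nudcd2 had 5.44 FPKM in siYthdf3 against 8.51 FPKM in siNC. Cep57l1 begins 331 bases from Sesn1 on the opposite strand and was at a ratio of 0.694 (interval 0.624 to 0.772). A row named LOC120098812 begins 46 bases from Cdkn1a on the opposite strand and had 3.07 FPKM in siYthdf3, against 1.93 FPKM in siNC (56 and 24 reads). The ratio was 1.59, with an interval of 0.970 to 2.68 that includes 1. Cpm, beside Mdm2, had a ratio of 1.19 (interval 0.878 to 1.63), near that of Mdm2. These neighbours were looked up by position after the values of the p53 response genes were known.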
